A study of Mus musculus with 12 samples.

Results

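The 36 genes described here are those of glycolysis and of the hypoxia response, taken as the rows of the count table whose symbol is on a list of HIF subunits, the enzymes that hydroxylate and degrade HIF, glucose and lactate transporters, glycolytic enzymes and other hypoxia targets. The list matched 37 of the 57010 rows, because Aldoa has a further row with 1 to 12 counts a library that was not tested. All 36 genes passed the filter on low counts and were tested among 15425 genes.

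RNA was sequenced from preosteoclasts, bone marrow cells grown for 2 days in M-CSF and RANKL, the growth factor and the differentiation signal that turn myeloid precursors into osteoclasts. The donors were female mice of 2 genotypes. LSD1cKO mice have Kdm1a, the gene of the histone demethylase LSD1, deleted by Cre under the LysM (Lyz2) promoter, which is active in myeloid cells and is not specific to osteoclast precursors; the alleles of the LSD1WT mice beyond that name are not given in the sources used here. Each genotype has 3 cultures of 2 libraries each: mandible marrow of ligated mice, femur marrow of ligated mice and femur marrow of unligated mice. A ligature is a silk thread left around an upper molar, here for 7 days, which inflames the gum. The labels give an age of 2 months, while the methods name another age, and all groups share the sex, cytokines and culture time. By the labels the marrow came from 9 mice, and 3 of them (1 LSD1WT and 2 LSD1cKO) are the source of a library at each site.

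The 12 libraries held 21375805 to 32526751 counts, so that 3 counts correspond to 0.0927 to 0.154 CPM (counts scaled to library size, with TMM factors). Kdm1a lay at 61.2 to 71.3 CPM in LSD1WT and at 15.6 to 24.3 CPM in LSD1cKO, and fell by 1.82 on the log2 scale over the 3 cultures (SE 0.11, adjusted p = 3.56e-05). Of the LSD1WT libraries, replicate 2 of both femur cultures stood apart: 20 osteoclast marker genes summed to 1046 and 1071 CPM there and to 14820 to 46870 CPM elsewhere, and 12 macrophage marker genes to 14760 and 11910 CPM against 1956 to 5297 CPM. Over all libraries the other marker lists summed to 89.5 to 306 CPM for neutrophils, at most 0.687 for erythroid cells (2 of 8 genes at 0 throughout), at most 9.60 for B cells, 0.663 to 41.6 for stromal cells and 406 to 2023 for proliferation. The label of a preosteoclast therefore rests on few osteoclast transcripts in those libraries, and members whose call or direction over the 3 cultures turned with them are given without them too. The mandible LSD1WT replicates were nearly alike, with a biological coefficient of variation of 0.0246 against 0.0965 to 0.716 for the other pairs. Over genes with at least 100 counts, their median squared difference was 1.57 times that of counting noise, against 6.39 to 152 for the other pairs. By the labels they come from different mice, and replicate 3 is mandible by its title but femur by its library name. In these cultures a change in the number of cells of one type and a change in RNA per cell cannot be told apart.

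As background, cells break glucose down to pyruvate in glycolysis and can turn pyruvate into lactate, which monocarboxylate transporters carry across the membrane. When oxygen is plentiful, prolyl hydroxylases mark the HIF-α proteins, VHL binds the marked protein and it is degraded. When oxygen is scarce, HIF-α pairs with ARNT and raises transcription of glycolytic genes and of genes such as Vegfa; this control acts mainly on the HIF-1α protein, which RNA counts do not measure. Osteoclasts are known for a high energy demand, met by both glycolysis and mitochondria.

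HIF binds short DNA letters with the core ACGTG or GCGTG, so the promoters of Slc16a3, which differed between genotypes, of Aldoc and Ankrd37, which gave positive values without passing, and of Hif1a itself are shown with these letters in capitals. Sequences are RefSeq's, build GRCm38.p6, 5′ to 3′ on the gene's strand, covering 250 bases before the start; a core on the other strand appears as CACGT or CACGC, and overlapping cores (CACGTG holds one on each strand) run together.
Slc16a3 (chr11:120948817-120949066, plus strand): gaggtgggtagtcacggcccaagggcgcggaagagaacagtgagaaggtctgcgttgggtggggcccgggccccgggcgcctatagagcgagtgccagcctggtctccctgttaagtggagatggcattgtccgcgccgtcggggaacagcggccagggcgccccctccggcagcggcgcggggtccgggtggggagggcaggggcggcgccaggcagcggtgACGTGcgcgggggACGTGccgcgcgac
Ankrd37 (chr8:45999851-46000100, minus strand): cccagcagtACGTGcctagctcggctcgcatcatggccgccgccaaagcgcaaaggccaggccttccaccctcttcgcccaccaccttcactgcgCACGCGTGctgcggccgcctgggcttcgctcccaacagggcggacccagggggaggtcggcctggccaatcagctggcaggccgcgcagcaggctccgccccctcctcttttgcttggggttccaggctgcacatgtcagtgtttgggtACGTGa
Aldoc (chr11:78322823-78323072, plus strand): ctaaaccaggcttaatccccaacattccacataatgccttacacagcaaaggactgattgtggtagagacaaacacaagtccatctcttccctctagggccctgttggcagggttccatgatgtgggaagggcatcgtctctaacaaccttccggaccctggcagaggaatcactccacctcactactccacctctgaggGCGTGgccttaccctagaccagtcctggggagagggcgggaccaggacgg
Hif1a (chr12:73907617-73907866, plus strand): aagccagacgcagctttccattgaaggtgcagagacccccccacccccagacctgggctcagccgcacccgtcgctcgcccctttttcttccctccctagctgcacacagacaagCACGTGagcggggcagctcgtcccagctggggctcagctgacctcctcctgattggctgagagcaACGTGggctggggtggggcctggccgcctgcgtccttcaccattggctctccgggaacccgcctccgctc
Slc16a3 held 2 cores in these bases, Ankrd37 4, Aldoc 1 and Hif1a 3. Over whole windows of 300 bases, which include 50 bases after the start, 30 of the 34 members with a window (88.2%) held a core, as did 39 of their 49 windows (79.6%), beside 43.8% of 32851 windows of all genes. Epas1 and Ndrg1 had no entry. A match is a stretch of letters and no measurement of binding.

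The transcription factor came first. Hif1a, the oxygen-regulated α subunit, was at 90.9 and 89.9 CPM in mandible LSD1WT, 93.5 and 109 in mandible LSD1cKO, 92.7 and 167 in femur ligated LSD1WT, 115 and 102 in femur ligated LSD1cKO, 86.4 and 146 in femur unligated LSD1WT, and 117 and 98.4 in femur unligated LSD1cKO. The highest levels were those of femur LSD1WT replicate 2 of both cultures, the libraries with few osteoclast transcripts, and the other 10 libraries lay within a ratio of 1.36 of each other. The genotypes did not overlap in the mandible, where both LSD1cKO libraries were the higher, and overlapped in both femur cultures. In the mandible 34.1% of all genes were higher and 34.8% lower without overlap. Such separation is therefore common there, for the members below too.

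Hif1a did not pass the test in any comparison of genotypes (the quasi-likelihood test of edgeR, adjusted by Benjamini-Hochberg over all 15425 genes, used throughout). Its log2 fold change of LSD1cKO over LSD1WT was 0.16 (SE 0.33, adjusted p = 1) in the mandible, -0.26 (SE 0.33, adjusted p = 0.902) in the ligated femur and -0.11 (SE 0.33, adjusted p = 1) in the unligated femur. Over the 3 cultures together it was -0.07 (SE 0.17, adjusted p = 0.902), and without femur LSD1WT replicate 2 of both cultures it was 0.27 (SE 0.092, adjusted p = 0.058). The sign of the Hif1a difference thus turned with those libraries and the threshold was not passed either way. The genotype effect on Hif1a in the mandible minus that in the ligated femur was 0.42 (SE 0.46, adjusted p = 1), and that in the ligated minus that in the unligated femur was -0.15 (SE 0.46, adjusted p = 1).

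Of the other subunits, Arnt, the constant partner of the α subunits, ranged from 46.3 to 66.5 CPM in 10 libraries and was at 103 and 94.9 CPM in femur LSD1WT replicate 2, ligated and unligated. Epas1, which encodes HIF-2α, was scarcer, at 5.09 to 28.9 CPM. Both gave values below 0 over the 3 cultures without passing the test, a log2 fold change of -0.29 (SE 0.15, adjusted p = 0.37) for Arnt and -0.76 (SE 0.27, adjusted p = 0.191) for Epas1. They were -0.02 and -0.68, with adjusted p of 0.897 and 0.0718, without femur LSD1WT replicate 2 of both cultures. Per kilobase of exon, counting every annotated exon of the gene, the mean level was 18.5 CPM for Hif1a, 8.13 for Arnt and 2.17 for Epas1. That length can exceed the transcript present, so the order of genes on this scale is uncertain where their lengths differ much.

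**Figure D1:**
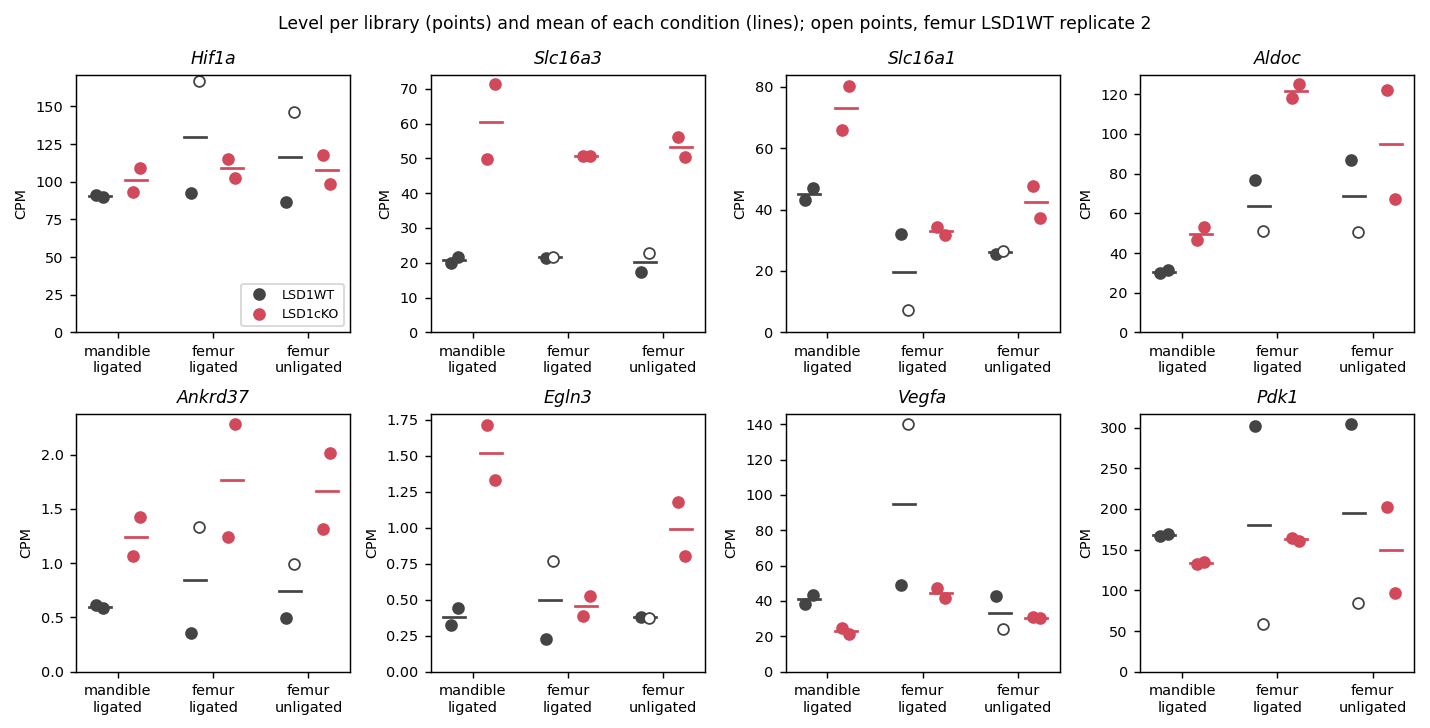
CPM of 8 members (vertical axes, each from 0) in every library, by culture and genotype; grey is LSD1WT, red LSD1cKO, lines are means of 2 libraries, and open points are femur LSD1WT replicate 2. Slc16a3 separates the genotypes in all 3 cultures, with LSD1WT at 17.4 to 22.9 CPM and LSD1cKO at 49.8 to 71.4 CPM, while the Hif1a values overlap in both femur cultures.

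Beside Hif1a, its targets did not follow a single course. The CPM of 16 glycolytic enzymes summed to 7893 and 7935 in mandible LSD1WT, 7529 and 8195 in mandible LSD1cKO, 7914 and 4153 in femur ligated LSD1WT, 6114 and 6324 in femur ligated LSD1cKO, 6986 and 6312 in femur unligated LSD1WT, and 8163 and 6006 in femur unligated LSD1cKO. The library with the highest Hif1a level, femur ligated LSD1WT replicate 2, had the lowest glycolytic sum. The 7 hypoxia targets outside glycolysis summed to 379 CPM in that library and to 139 to 195 CPM in the other 11, so this sum was highest where the glycolytic one was lowest. This was seen in 1 library only. Femur unligated LSD1WT replicate 2, with Hif1a at 146 CPM and few osteoclast transcripts too, had a target sum of 194 CPM and a glycolytic sum of 6312 CPM.

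**Figure D2:**
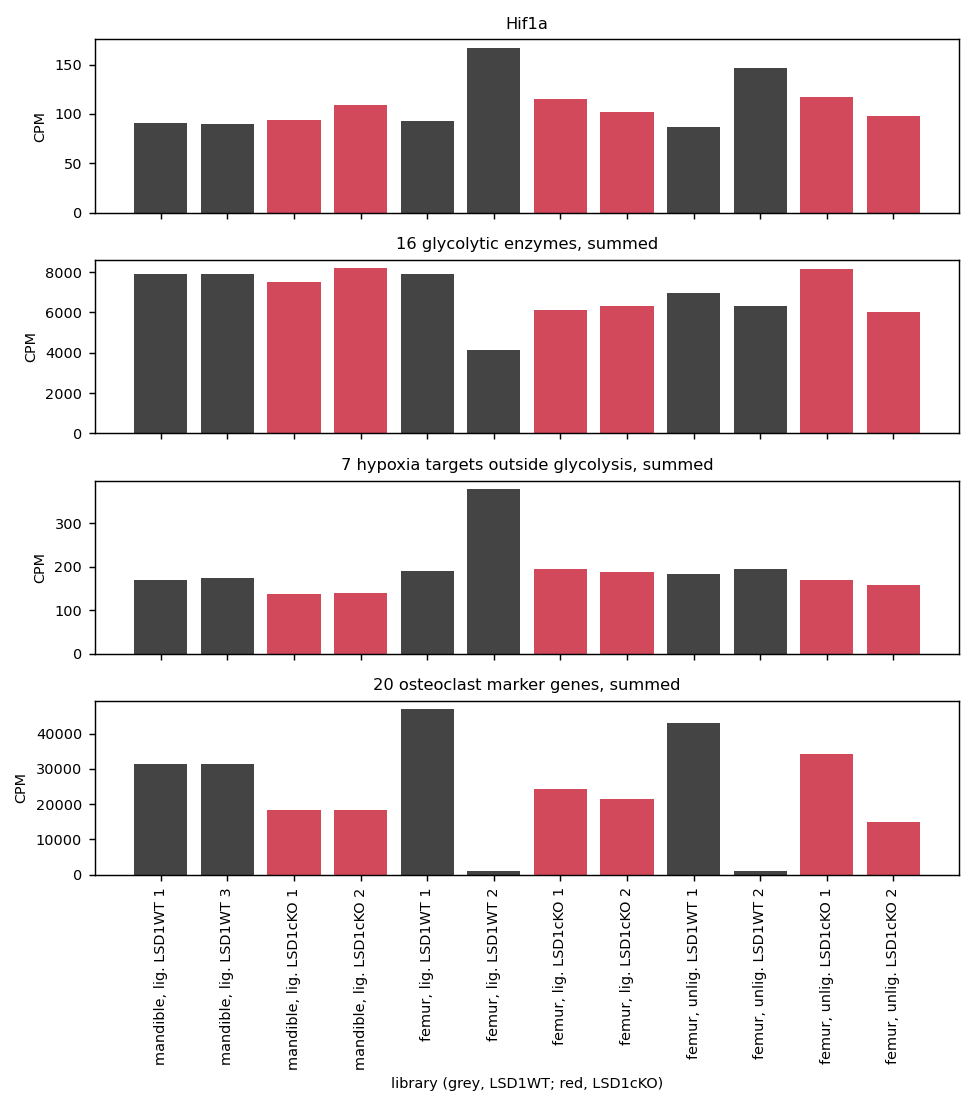
CPM per library of Hif1a, of 16 glycolytic enzymes summed, of 7 hypoxia targets outside glycolysis summed and of 20 osteoclast marker genes summed (vertical axes from 0; grey LSD1WT, red LSD1cKO). Femur ligated LSD1WT replicate 2 has the highest Hif1a (167 CPM) and target sum (379 CPM), the lowest glycolytic sum (4153 CPM) and few osteoclast transcripts (1046 CPM). Femur unligated LSD1WT replicate 2 (Hif1a 146 CPM, osteoclast markers 1071 CPM) has a target sum of 194 CPM and a glycolytic sum of 6312 CPM.

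The member that differed between genotypes was Slc16a3, which encodes MCT4, the transporter best known for carrying lactate out of glycolytic cells. It was at 19.9 and 21.7 CPM in mandible LSD1WT, 49.8 and 71.4 in mandible LSD1cKO, 21.3 and 21.8 in femur ligated LSD1WT, 50.7 and 50.7 in femur ligated LSD1cKO, 17.4 and 22.9 in femur unligated LSD1WT, and 56.2 and 50.4 in femur unligated LSD1cKO. Every LSD1cKO library was above every LSD1WT library, with means of 54.9 ± 8.43 (SD, n = 6 libraries) and 20.8 ± 1.93 CPM (SD, n = 6 libraries). These are libraries rather than mice, since by the labels some mice gave a library at each site. Femur LSD1WT replicate 2, which stood apart for so many other genes, lay with the remaining LSD1WT libraries here.

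Over the 3 cultures together Slc16a3 rose 2.63-fold in LSD1cKO, a log2 fold change of 1.39 (SE 0.12, adjusted p = 0.00031). It was the 1 member called among 36. Over all genes 3% were called higher and 0.532% lower, so the share of members called was near the background. The fit took all 12 libraries as independent, though some came from the same mouse. With the mouse as a block (limma voom, estimated correlation) 1 member, Slc16a3, was called as well, beside 382 of 15425 genes. In the fit of condition means that correlation was -0.391, and its value in the fit over the 3 cultures is not given here. A negative correlation does not widen the error of a genotype difference, so this block cannot show what the sharing of mice costs. The adjusted p of Slc16a3 ranged from 7.27e-24 to 0.00225 over 22 alternative settings, and its log2 fold change from 1.35 to 1.49 when any 1 library was left out. Within a culture the log2 fold change was 1.54 (SE 0.23) in the mandible, 1.24 (SE 0.23) in the ligated femur and 1.40 (SE 0.23) in the unligated femur, with adjusted p of 0.124, 0.161 and 0.237. It ranked first among the members in each, but with 2 libraries a group no member passed in a single culture, and the background of called genes was 0%, 0.00648% and 0% there.

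The genotype effect on Slc16a3 did not differ by test between mandible and ligated femur (difference 0.31, SE 0.32, adjusted p = 1) or between ligated and unligated femur (-0.16, SE 0.32, adjusted p = 1). No member passed either test of such a difference, for which 0% of genes were called. By count of separation, Slc16a3 was the 1 member of 36 with both LSD1cKO libraries above both LSD1WT libraries in every culture, beside 5.17% of all genes. Egln2 was the 1 member with both below in every culture, beside 3.2% of all genes.

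The other transporters did not pass the test in the fit of all 12 libraries. Slc16a1, which encodes MCT1 and carries lactate in both directions, was at 43.2 and 47.0 CPM in mandible LSD1WT, 66.1 and 80.4 in mandible LSD1cKO, 32.1 and 7.24 in femur ligated LSD1WT, 34.4 and 31.8 in femur ligated LSD1cKO, 25.6 and 26.5 in femur unligated LSD1WT, and 47.6 and 37.3 in femur unligated LSD1cKO. The genotypes were apart in the mandible and the unligated femur. They overlapped in the ligated femur, where LSD1WT replicate 1 lay between the LSD1cKO libraries and LSD1WT replicate 2 alone was low. Its log2 fold change over the 3 cultures was 0.72 (SE 0.28, adjusted p = 0.221), and it was 0.56 without femur LSD1WT replicate 2 of both cultures. Slc2a1, which encodes the glucose importer GLUT1, was at 27.2 to 66.2 CPM with a log2 fold change of -0.21 (SE 0.16, adjusted p = 0.569).

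In upper glycolysis, the steps that consume ATP, none of the 11 members passed in the fit of all 12 libraries. Aldoc, an aldolase isoform best known from brain, came nearest: it was at 29.8 and 31.6 CPM in mandible LSD1WT, 46.7 and 53.0 in mandible LSD1cKO, 76.9 and 51.0 in femur ligated LSD1WT, 118 and 125 in femur ligated LSD1cKO, 86.7 and 50.6 in femur unligated LSD1WT, and 122 and 67.4 in femur unligated LSD1cKO. The genotypes were apart in both ligated cultures and overlapped in the unligated femur. The log2 fold change of Aldoc was 0.70 (SE 0.19, adjusted p = 0.0808), and 0.56 without femur LSD1WT replicate 2 of both cultures.

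Aldoa, the main aldolase here, had a mean of 504.5 CPM per kilobase of exon against 22.0 for Aldoc, and a log2 fold change of -0.02 (SE 0.25, adjusted p = 0.979). The hexokinases, which trap glucose in the cell, had means per kilobase of 36.9 CPM for Hk3, 25.2 for Hk1 and 6.99 for Hk2. In CPM alone Hk1 was above Hk3, with means of 215 and 136, as the exon lengths used were 8532 and 3682 bases. Over the 10 libraries other than femur LSD1WT replicate 2 the means per kilobase were 27.5 for Hk3, 27.3 for Hk1 and 6.03 for Hk2. Most of the gap per kilobase between Hk3 and Hk1 thus rested on that replicate. The phosphofructokinases, which commit sugar to glycolysis, had means of 100 CPM for Pfkp, 42.7 for Pfkl and 20.6 for Pfkm. Per kilobase these were 7.46, 6.39 and 6.17 CPM, with overlapping ranges. The exon lengths used were 13401, 6675 and 3340 bases, so the closeness per kilobase depends on them. No hexokinase or phosphofructokinase passed in the fit over 3 cultures. Hk1 gave a log2 fold change of 0.20 there, Hk2 -0.29, Hk3 -0.53, Pfkp 0.39, Pfkl -0.32 and Pfkm -0.30. Hk3 was at 208 and 409 CPM in femur LSD1WT replicate 2, ligated and unligated, and at 79.7 to 133 CPM in the other 10 libraries. Gpi1, the isomerase that follows hexokinase, and Tpi1, which interconverts the triose phosphates, gave -0.23 and 0.02. The sign turned without femur LSD1WT replicate 2 of both cultures for Hk1 (-4.6e-05), Hk2 (0.28), Hk3 (0.10) and Tpi1 (-0.17), and none passed.

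Pfkfb3, whose product makes the activator of phosphofructokinase, depended strongly on the libraries that stood apart. It was at 7.14 and 6.57 CPM in mandible LSD1WT, 11.5 and 11.5 in mandible LSD1cKO, 6.82 and 30.8 in femur ligated LSD1WT, 17.2 and 16.9 in femur ligated LSD1cKO, 8.86 and 27.4 in femur unligated LSD1WT, and 14.8 and 12.4 in femur unligated LSD1cKO. The LSD1cKO libraries were above all LSD1WT libraries but those of femur replicate 2, which were the highest of the 12. The log2 fold change was 0.06 (SE 0.38, adjusted p = 0.966) with them and 0.90 without them.

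In lower glycolysis, the steps that yield ATP, and at the pyruvate branch point, none of the 7 members passed in the fit of all 12 libraries. The log2 fold change over the 3 cultures was 0.12 for Gapdh, -0.07 for Pgk1, 0.03 for Pgam1, 0.25 for Eno1, 0.16 for Pkm (pyruvate kinase) and 0.07 for Ldha, which makes lactate. Leaving out femur LSD1WT replicate 2 of both cultures turned the sign for Ldha (-0.15) and Pgam1 (-0.08), and none passed. These genes have many near-copies: of their stretches of 50 bases, 58.4% of Gapdh, 68% of Pgk1, 49.5% of Eno1, 41.5% of Pgam1, 23.7% of Pkm and 10.4% of Ldha occur in transcripts of other genes in the GRCm38 annotation, so their levels are uncertain. None of the stretches of Slc16a3, Slc16a1 or Aldoc do.

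Pdk1, the kinase that holds pyruvate back from mitochondria, was at 166 and 169 CPM in mandible LSD1WT, 133 and 135 in mandible LSD1cKO, 302 and 59.0 in femur ligated LSD1WT, 164 and 161 in femur ligated LSD1cKO, 305 and 85.0 in femur unligated LSD1WT, and 202 and 97.1 in femur unligated LSD1cKO. LSD1cKO was lower without overlap in the mandible, and in the femur it lay between the LSD1WT replicates. The libraries highest and lowest in Pdk1 were also highest and lowest in summed osteoclast markers (46870 and 43110 CPM against 1046 and 1071 CPM), and the part of cell composition in Pdk1 was not tested. Its log2 fold change was -0.29 (SE 0.39, adjusted p = 0.796), and -0.65 without femur LSD1WT replicate 2 of both cultures.

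**Figure D3:**
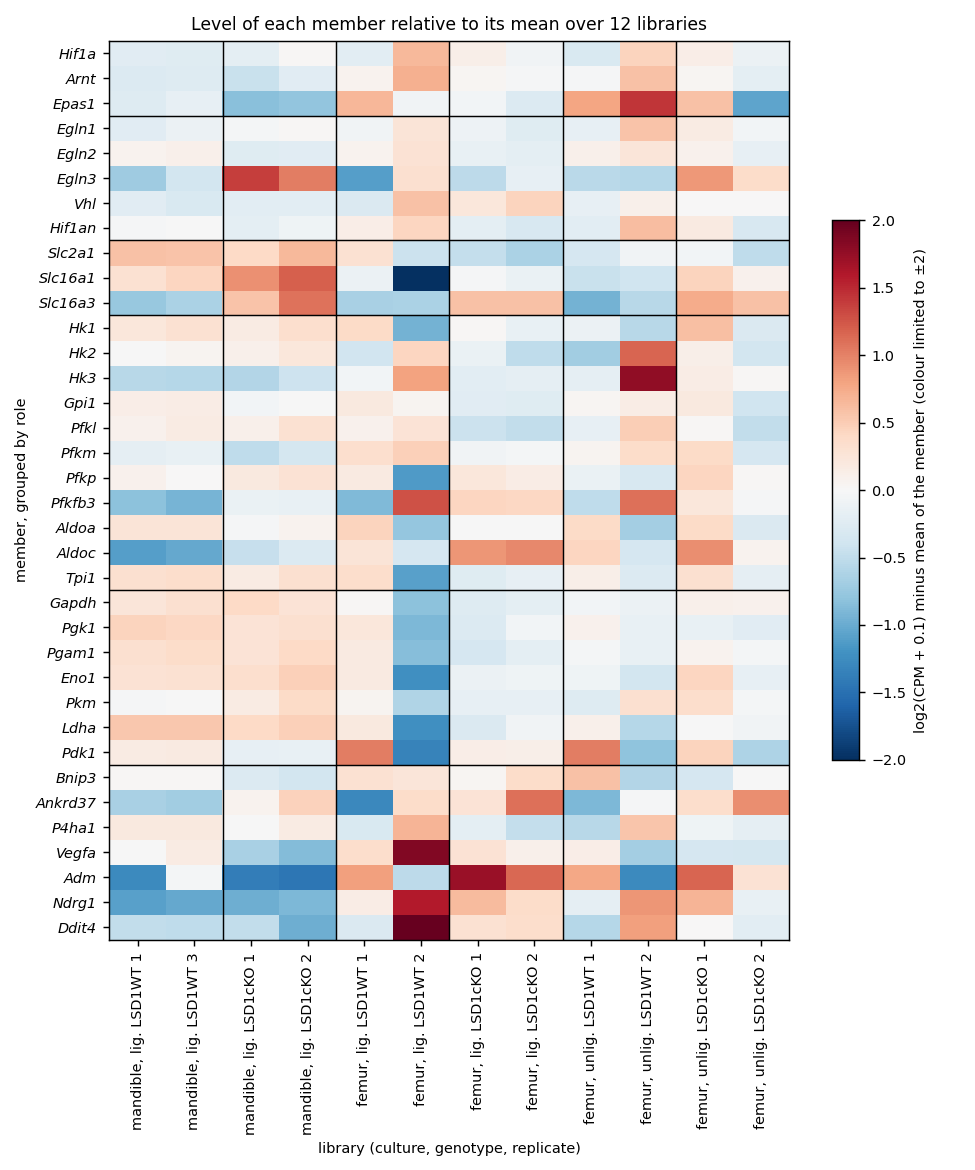
log2(CPM + 0.1) of the 36 members (rows, by role) in the 12 libraries (columns), each minus the member's own mean; red is above and blue below that mean, with the colour limited to ±2. Femur LSD1WT replicate 2 of both cultures was above the other 10 libraries for 11 members and below them for 7.

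Among the genes that control HIF protein, Egln2, a prolyl hydroxylase, was at 53.6 and 55.2 CPM in mandible LSD1WT, 43.2 and 44.0 in mandible LSD1cKO, 53.7 and 62.6 in femur ligated LSD1WT, 46.1 and 44.8 in femur ligated LSD1cKO, 55.2 and 60.9 in femur unligated LSD1WT, and 54.2 and 45.9 in femur unligated LSD1cKO. Its log2 fold change was -0.30 (SE 0.087, adjusted p = 0.104), which did not pass, nor did -0.20 (adjusted p = 0.0973) without femur LSD1WT replicate 2 of both cultures. Egln3, the prolyl hydroxylase that is itself a known HIF target, rested on 7 to 50 counts a library. It was at 0.326 and 0.440 CPM in mandible LSD1WT, 1.72 and 1.33 in mandible LSD1cKO, 0.226 and 0.770 in femur ligated LSD1WT, 0.389 and 0.526 in femur ligated LSD1cKO, 0.382 and 0.373 in femur unligated LSD1WT, and 1.18 and 0.806 in femur unligated LSD1cKO.

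The genotypes were apart for Egln3 in the mandible and the unligated femur and overlapped in the ligated femur. Its log2 fold change was 1.13 (SE 0.41, adjusted p = 0.185), and 1.61 without femur LSD1WT replicate 2 of both cultures. Egln1, the main prolyl hydroxylase, gave -0.10, Hif1an, the asparaginyl hydroxylase FIH, -0.33, and Vhl, the ubiquitin ligase subunit, 0.07. Egln1 turned to 0.15 without femur LSD1WT replicate 2 of both cultures and did not pass. Per kilobase Egln2 was at a mean of 18.4 CPM, Egln1 at 10.2 and Egln3 at 0.265, and these ranges overlapped for none of the pairs.

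Of the 7 hypoxia targets outside glycolysis, none passed in the fit of all 12 libraries. Ankrd37, a strongly hypoxia-induced gene, was at 0.612 and 0.587 CPM in mandible LSD1WT, 1.06 and 1.42 in mandible LSD1cKO, 0.356 and 1.33 in femur ligated LSD1WT, 1.24 and 2.28 in femur ligated LSD1cKO, 0.496 and 0.994 in femur unligated LSD1WT, and 1.32 and 2.02 in femur unligated LSD1cKO. LSD1cKO was higher without overlap in the mandible and the unligated femur, on 11 to 55 counts a library. The log2 fold change was 1.10 (SE 0.34, adjusted p = 0.121), and 1.61 without femur LSD1WT replicate 2 of both cultures.

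Vegfa, the angiogenic growth factor, had fitted values below 0 for LSD1cKO over LSD1WT. It was at 38.6 and 43.3 CPM in mandible LSD1WT, 24.7 and 21.3 in mandible LSD1cKO, 49.3 and 140 in femur ligated LSD1WT, 47.5 and 41.8 in femur ligated LSD1cKO, 42.7 and 24.3 in femur unligated LSD1WT, and 30.8 and 30.5 in femur unligated LSD1cKO. LSD1cKO was lower without overlap in both ligated cultures, and the highest library was femur ligated LSD1WT replicate 2. The log2 fold change was -0.68 (SE 0.26, adjusted p = 0.221), and -0.50 without femur LSD1WT replicate 2 of both cultures.

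The remaining targets were Bnip3 (mitophagy), P4ha1 (collagen hydroxylation), Ndrg1 (a stress-induced gene), Ddit4 (an inhibitor of mTORC1) and Adm (adrenomedullin). Their log2 fold changes over the 3 cultures were -0.23, -0.32, -0.18, -0.57 and 0.46, with adjusted p from 0.529 to 0.818. Leaving out femur LSD1WT replicate 2 of both cultures turned the sign for P4ha1 (0.10), Ndrg1 (0.34), Ddit4 (0.29) and Adm (-0.06), and none of the 5 passed. P4ha1, Ndrg1 and Ddit4 were each higher in femur LSD1WT replicate 2 of both cultures than in the other 10 libraries. Adm had 2 to 35 counts a library, so its fold changes depend on the prior count and are given as fitted values only.

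Taken as a list, the 36 members had a median log2 fold change of -0.07 over the 3 cultures, beside -0.06 for all genes tested, with 16 above and 20 below 0. At an unadjusted p under 0.05 there were 8 members (22.2%) and 16.1% of all genes. Without femur LSD1WT replicate 2 of both cultures 8 members were called, 6 higher (Slc16a3, Pfkfb3, Egln3, Ankrd37, Slc16a1 and Aldoc) and 2 lower (Vegfa and Pdk1), beside 14.4% of genes called higher and 9.75% lower of 16008. In that fit each LSD1WT femur culture is a single library, assumed to vary like the other groups. The share of members called was near that of all genes. Summed osteoclast markers were at 31280 to 46870 CPM in the LSD1WT libraries left and at 14820 to 34080 CPM in LSD1cKO. The part of cell composition in these values was not tested.

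Counts of members whose libraries did not overlap differed from culture to culture. In the mandible 14 members were higher and 14 lower in both LSD1cKO libraries, beside 34.1% and 34.8% of all genes. Summed cell markers were also apart between genotypes in the mandible: osteoclast markers summed to 31400 and 31280 CPM in LSD1WT and to 18330 and 18350 in LSD1cKO (20 of 20 lower), proliferation markers to 1096 and 1067 against 1529 and 1716 (8 of 8 higher), and stromal markers to 40.9 and 41.6 against 8.79 and 3.55 (4 of 5 lower). No marker gene passed the test, and the part of these in the mandible results was not tested. In the ligated femur 3 were higher and 10 lower, beside 14.8% and 19.4%. In the unligated femur 6 were higher and 3 lower, beside 9.82% and 8.57%.

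In single cultures, the members with the smallest p after Slc16a3 did not pass the test. They were Egln3 (log2 fold change 1.97), Aldoc (0.70), Vegfa (-0.83) and Egln2 (-0.32) in the mandible, and Aldoc (0.93), Pfkl (-0.64), Vegfa (-1.08) and Egln2 (-0.35) in the ligated femur. In the unligated femur they were Egln3 (1.38), Epas1 (-1.16), Hk3 (-1.02) and Ankrd37 (1.16). For the genotype effect in the mandible minus that in the ligated femur they were Egln3 (2.06), Pfkl (0.73), Adm (-2.90), Slc2a1 (0.49) and Egln1 (0.45). For the ligated minus the unligated femur they were Egln3 (-1.47), Vegfa (-0.95), Slc2a1 (-0.47), Aldoc (0.46) and Epas1 (0.65). None passed. Hk3 in the unligated femur gave 0.28 without femur unligated LSD1WT replicate 2. Vegfa in the ligated femur gave -0.15 without femur ligated LSD1WT replicate 2. Without both, Vegfa gave 0.41 for the ligated minus the unligated femur. No other value named in this paragraph turned sign in the alternatives.

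**Figure D4:**
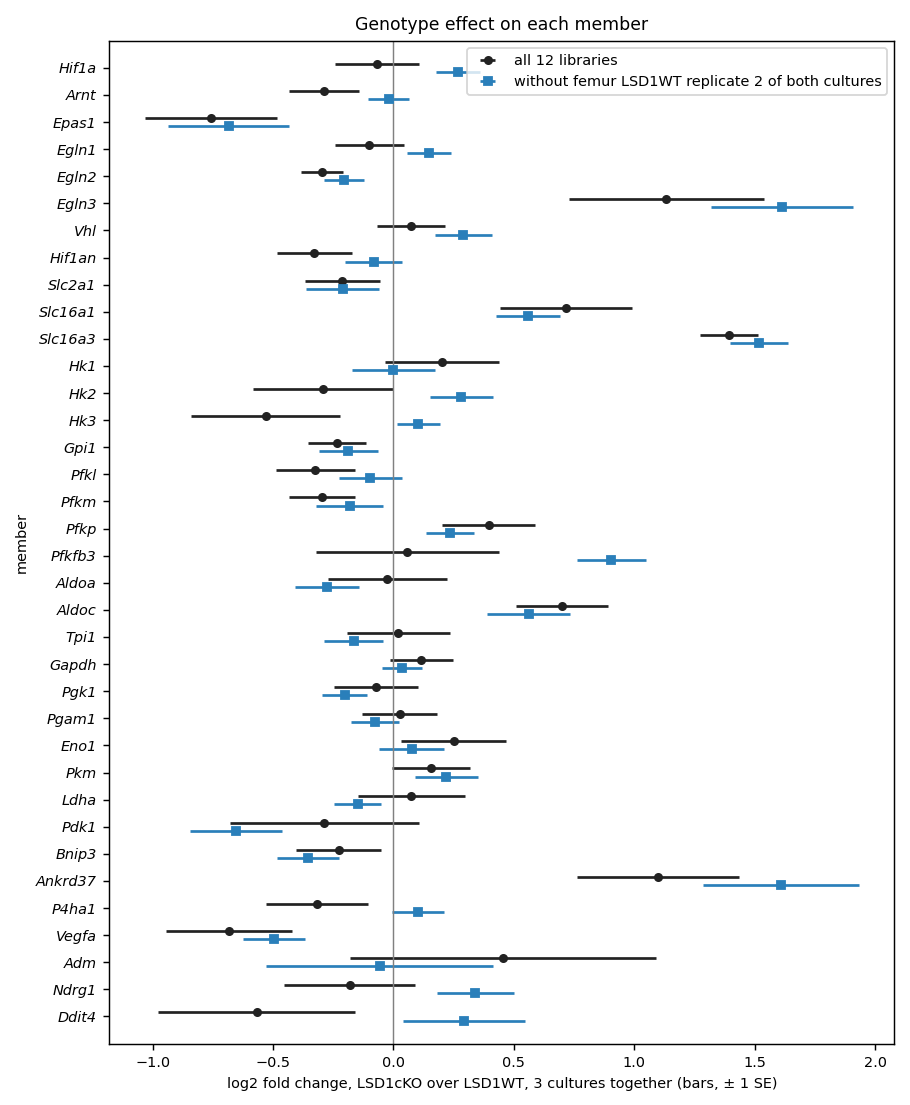
log2 fold change of LSD1cKO over LSD1WT for each member over the 3 cultures (horizontal axis; bars, ± 1 SE), from all 12 libraries (black circles) and without femur LSD1WT replicate 2 of both cultures (blue squares). Slc16a3 lies at 1.39 and 1.52, Pfkfb3 moves from 0.06 to 0.90, and Hif1a from -0.07 to 0.27.

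Wider lists of the same pathways gave few further calls over the 3 cultures, where 3% of all genes were called higher and 0.532% lower. The lists were chosen with earlier results of these data known, so their counts are not independent of the data. Of 8 genes of glucose and lactate transport 2 rose, Slc16a3 and Slc2a6, which encodes the glucose transporter GLUT6 (log2 fold change 1.91, SE 0.30, adjusted p = 0.00662). Slc2a6 was at 6.20 to 33.7 CPM in LSD1WT and at 33.9 to 78.8 CPM in LSD1cKO. Of 20 glycolytic enzymes tested 1 rose, Eno2, an enolase isoform best known from neurons (log2 fold change 1.93, SE 0.37, adjusted p = 0.0181), at 0.821 to 9.53 CPM.

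Of 38 hypoxia response genes outside glycolysis none rose and 2 fell. P4ha2, a collagen prolyl hydroxylase subunit, fell by 2.06 on the log2 scale (SE 0.36, adjusted p = 0.0114). Kdm3a, a histone demethylase, fell by 0.50 (SE 0.11, adjusted p = 0.0333). With femur LSD1WT replicate 2 of both cultures left out, the log2 fold changes were 2.49 for Slc2a6, 1.65 for Eno2, -1.38 for P4ha2 and -0.45 for Kdm3a, with adjusted p from 2.28e-06 to 0.00693. In the lists of 4 HIF subunits, 9 genes of HIF hydroxylation and degradation, 7 regulators of glycolysis, 7 pentose phosphate genes, 3 gluconeogenesis genes and 11 genes of pyruvate entry to mitochondria, no gene passed.

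Between the mandible and femur cultures of ligated mice no member passed the test in either genotype, and 0% of all genes were called. The 5 smallest p values in LSD1WT belonged to Ndrg1 (log2 fold change of mandible over femur -2.10), Aldoc (-1.06), Vegfa (-1.21), Arnt (-0.69) and Ddit4 (-1.93). Without femur ligated LSD1WT replicate 2, which had few osteoclast transcripts, the values were -1.21, -1.33, -0.27, -0.34 and -0.24 in that order. A single femur LSD1WT library of ligated mice is then left. In LSD1cKO they belonged to Slc2a1 (1.08), Aldoc (-1.29), Adm (-4.01), Egln3 (1.73) and Ndrg1 (-1.45). Hif1a gave -0.52 (SE 0.33, adjusted p = 0.393) in LSD1WT and -0.11 (SE 0.33, adjusted p = 0.937) in LSD1cKO. Its LSD1WT value was -0.04 without femur ligated LSD1WT replicate 2.

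Since 3 mice gave both libraries, the sites were also compared with the mouse as a block, in 2 ways that disagreed. With the correlation of libraries from 1 mouse estimated (-0.391, limma voom), 0 members and 0 genes were called in either genotype. With the mouse as a fixed term the fit has 1 residual degree of freedom, which comes from the LSD1cKO pairs, and the spread is otherwise borrowed across genes. In LSD1cKO 20 members were then called, 11 higher and 9 lower in the mandible, beside 37.5% of all genes. In LSD1WT 4 members were called lower, Aldoc (-1.33), Ndrg1 (-1.19), Pdk1 (-0.82) and Epas1 (-0.88), beside 7.18% of all genes, but these values are those of 1 mouse and have no LSD1WT replicate behind them.

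In the fit with the mouse as a fixed term, in LSD1cKO, the transporters Slc2a1 (log2 fold change 1.08, SE 0.16, adjusted p = 1.51e-05) and Slc16a1 (1.14, SE 0.16, adjusted p = 7.25e-06) rose in the mandible. So did 7 glycolytic genes, among them Ldha (0.61), Pgam1 (0.60), Gapdh (0.56) and Pfkl (0.66). Aldoc (-1.29, SE 0.15, adjusted p = 8.39e-07), Ndrg1 (-1.45), Vegfa (-0.96), Ddit4 (-1.14) and Bnip3 (-0.53) fell. Slc2a1 was at 55.4 and 66.2 CPM in mandible LSD1cKO and at 30.2 and 27.2 CPM in femur LSD1cKO, and Ndrg1 at 13.5 and 14.3 CPM against 41.3 and 34.5 CPM.

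Proliferation markers were apart between the sites as well, with 8 genes summing to 1529 and 1716 CPM in mandible LSD1cKO and to 406 and 476 CPM in femur ligated LSD1cKO, and macrophage markers summed to 1956 and 2436 CPM against 4936 and 4071 CPM. Their part in the differences between sites was not tested.

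**Figure D5:**
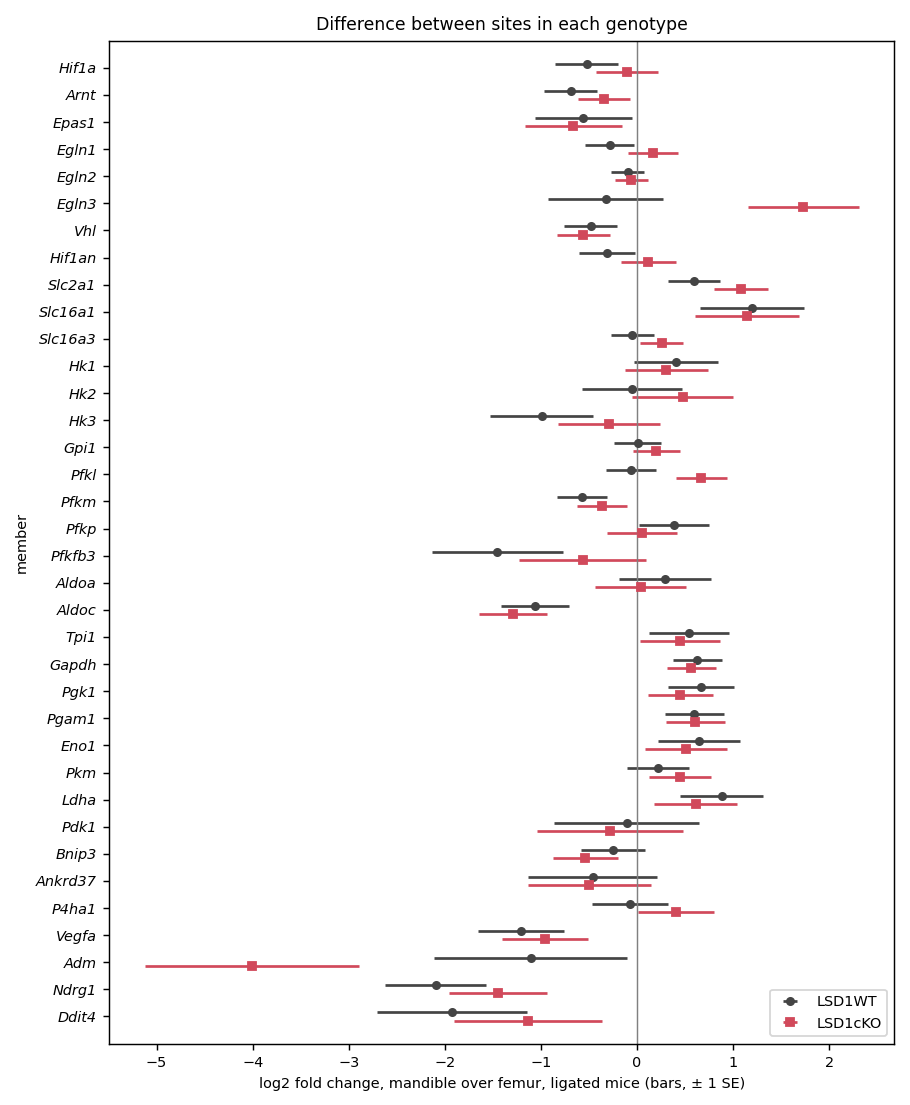
log2 fold change of mandible over femur in ligated mice for each member (horizontal axis; bars, ± 1 SE), in LSD1WT (grey circles) and LSD1cKO (red squares), from the fit of all 12 libraries. Aldoc (-1.06 and -1.29) and Ndrg1 (-2.10 and -1.45) lie below 0 in both genotypes, and Slc2a1 (1.08) above 0 in LSD1cKO. None passed in this fit. Without femur ligated LSD1WT replicate 2 the LSD1WT values were -1.33 for Aldoc and -1.21 for Ndrg1.

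The ligature itself was compared in the femur. No member passed in either genotype, and 0% of all genes were called. In LSD1WT the smallest p values belonged to Vegfa (log2 fold change of ligated over unligated 1.50), Epas1 (-0.80), Ddit4 (1.08), Hk3 (-0.68) and Ndrg1 (0.59). Without femur ligated LSD1WT replicate 2 the values were 0.56 for Vegfa, -0.48 for Epas1, -0.61 for Ddit4 and -0.31 for Ndrg1. Without femur unligated LSD1WT replicate 2 Hk3 gave 0.56. Each leaves a single LSD1WT library in 1 culture. In LSD1cKO the smallest p values belonged to Egln3 (-1.11), Gapdh (-0.32), Vegfa (0.54), Vhl (0.34) and Bnip3 (0.37). Hif1a gave 0.16 (SE 0.33, adjusted p = 1) in LSD1WT and 0.01 (SE 0.33, adjusted p = 1) in LSD1cKO. Its LSD1WT value was -0.33 without femur ligated LSD1WT replicate 2.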

How the data were processed

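Polyadenylated RNA of 12 preosteoclast cultures was sequenced. Per the labels, the authors aligned reads with HISAT2 2.1.0 to GRCm39 and counted them per gene with featureCounts; the deposited values are raw counts, and the submitters' notes also name FastQC and edgeR. The members, pathway lists and marker lists were chosen with earlier results of these data known. Groups came from the sample titles and library names. Counts were filtered with filterByExpr by condition, scaled by TMM and fitted with edgeR 4.0.16 in R 4.3.3 (glmQLFit, glmQLFTest) as 6 condition means over all 12 libraries; genotype over the 3 cultures was 1 term in a model with culture. P-values were adjusted by Benjamini-Hochberg over all 15425 genes tested, with a threshold of 0.05. Replicates of a condition come from different mice by the labels. The spread behind each p-value was estimated jointly over all 6 conditions, not from the 2 mice of a group. Tests within the mandible therefore carry the wider spread of the femur pairs too. Named were all members, Hif1a in every comparison, members past the threshold or, with fewer than 3, the 5 with the smallest p, the 10 with the smallest p over 3 cultures, and list genes called over the 3 cultures. The mouse as a block was fitted as a fixed term in the 8 ligated libraries, and with limma 3.58.1 (voom, estimated correlation) in all 12; the latter called 0 members and 0 genes between the sites. Levels per kilobase and shared stretches of 50 bases used GENCODE vM21 (GRCm38), promoters RefSeq GRCm38.p6, which is another build than that of the counts; no coordinates were converted. Counting intervals and floors of 3 counts cover counting error only. Alternatives were DESeq2 1.42.0, other scalings, no filter, replicates left out, the conditions compared alone, blocks, and replicate 3 of mandible LSD1WT as femur. Scripts were tested on simulated data.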

Additional observations from a re-analysis of the deposited data

Results flagged for a closer look

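Egln1 and Adm had values of opposite sign in the mandible and the ligated femur, with both LSD1cKO libraries on one side of both LSD1WT libraries in each culture. Egln1 had a log2 fold change of LSD1cKO over LSD1WT of 0.17 in the mandible and of -0.28 in the ligated femur. Adm had one of -1.61 in the mandible and of 1.29 in the ligated femur, but LSD1WT replicate 1 and both LSD1cKO libraries of the mandible hold 2 counts each, below the floor of 3, so that their order there comes from library size alone and the fitted values depend on the prior count. The test of the difference itself was not passed for either (Egln1 0.45, SE 0.36, adjusted p = 1; Adm -2.90, SE 1.49, adjusted p = 1; edgeR's quasi-likelihood test).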

How the results depend on the processing

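For 65 pairs of a gene and a comparison, 1472 alternative values were computed, of which 1388 kept direction and side of the threshold, 56 newly passed it, 0 lost it and 28 turned direction. Members called in the mandible (0) became 1 with DESeq2 (135 genes in all) and 1 without the filter on low counts (0.166% of all genes), 5 without femur LSD1WT replicate 2 of both cultures (5.85%) and 15 from the conditions compared alone (37.7%). In the ligated femur (0) they became 1 with DESeq2 (207 genes) and 4 without femur LSD1WT replicate 2 of both cultures (9.35%), and 0 to 1 with single libraries left out (1 without femur ligated LSD1WT replicate 1, 0.0865%). In the unligated femur (0) they became 1 with DESeq2 (121 genes) and 1 without femur LSD1WT replicate 2 of both cultures (2.47%). Over the 3 cultures (1) they became 4 with DESeq2 (1219 genes), 2 without the filter (2.39%), 8 without femur LSD1WT replicate 2 of both cultures (24.2%), and 1 to 3 with single libraries left out (3 without femur ligated LSD1WT replicate 2, 4.05%). Mandible against femur in LSD1WT (0) gave 1 with DESeq2 (1130 genes), 1 without the filter (3.02%), 4 with the mouse as a fixed block (7.18%), and 0 to 15 with single libraries left out (15 without femur ligated LSD1WT replicate 1, 23.2%). In LSD1cKO (0) it gave 3 with DESeq2 (753 genes), 15 without femur LSD1WT replicate 2 of both cultures (21.7%), 24 from the conditions compared alone (42.1%), 20 with the mouse as a fixed block (37.5%), and 0 to 2 with single libraries left out (2 without femur ligated LSD1WT replicate 1, 4.25%). With the mouse as a block of estimated correlation (limma voom) both site comparisons gave 0 members and 0 genes. Ligated against unligated femur in LSD1WT (0) gave 0 to 1 (1 without femur ligated LSD1WT replicate 1, 0.192%). Directions turned as follows, as log2 fold changes. Without femur LSD1WT replicate 2 of both cultures, the genotype effect on Hif1a was 0.31 in the ligated femur, 0.33 in the unligated femur and 0.27 over the 3 cultures, and its difference between mandible and femur was -0.12. With single libraries left out these ranged from -0.53 to 0.23, -0.37 to 0.33, -0.0876 to 0.0906 and -0.0611 to 0.73, and the difference between ligated and unligated femur from -0.50 to 0.34. Hif1a over the 3 cultures was 0.0117 with mandible LSD1WT replicate 3 as femur, and 0.0120 for mandible against femur in LSD1WT with the mouse as a block. For the ligature it ranged from -0.33 to 0.53 in LSD1WT and from -0.0904 to 0.19 in LSD1cKO. Without femur LSD1WT replicate 2 of both cultures, Hk3 gave 0.28 for genotype in the unligated femur and 0.0733 for the ligature in LSD1WT, and Vegfa 0.41 for the difference between ligated and unligated femur. With single libraries left out, Hk3 ranged from -1.62 to 0.28 and from -1.34 to 0.56 in these, and for the ligature in LSD1WT Ndrg1 from -0.31 to 1.16 and Ddit4 from -0.61 to 1.96. The causes were not tested. By the labels, replicate numbers otherwise mark different mice; same-numbered femur LSD1WT libraries deviated together between ligated and unligated mice (correlation 0.78, with replicate 2 apart in both). The fit with the replicate number as a block changed no count of members called by over 1.5 times; across the sites, the deviations of the 2 LSD1cKO mice had a correlation of 0.026. Other scalings moved the median of all genes by under 0.1. With 2 libraries a group, a difference in a single culture was detectable only where it was large beside the spread estimated over all conditions. For Adm, Egln3, Ankrd37 and Ddit4 low counts limit the values.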
